A study of Mus musculus with 13 samples.

Results

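The plasma cell genes described here are Jchain, Sdc1, Mzb1, Prdm1, Irf4, Xbp1, Tnfrsf17, Derl3, Fkbp11 and Slamf7, 10 genes whose rows were taken by symbol; the choice of genes was made with earlier results of these data known. All 10 were found among the 19505 genes with a single symbol, each on 1 row of the array table, and 8 of them were among the 10601 genes bright enough to be tested. The 10 genes were followed through whole bone marrow of transplanted mice, measured on 13 Affymetrix expression arrays in 3 groups.

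In every group, LSK cells, the lineage-negative fraction rich in blood stem and progenitor cells, were taken from Cas9 knock-in mice, given sgRNAs and transplanted 24 h later into C57Bl/6J mice irradiated with 7 Gy. The sgLuc group (4 arrays) received sgLuc with no BRSST guides, the BRSST+sgLuc group (5 arrays) received the BRSST guides with sgLuc, and the BRSST+sgEzh2 group (4 arrays) received the BRSST guides with a guide to Ezh2, the gene of a histone H3 lysine 27 methyltransferase. The labels do not spell out BRSST, do not give the age of the mice and do not give the share of the marrow that came from edited donor cells or from the host. Marrow was taken when leukemia appeared or after 6 months, and which of these applied to an array is not given, so disease stage and group cannot be told apart. The labels do not state that the arrays are from different mice. The p-values here set differences between group means against the spread of samples within a group, and that spread may be technical.

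Plasma cells are the antibody-secreting end stage of the B cell lineage, and the bone marrow is where long-lived ones reside. Irf4 and Prdm1, the gene of Blimp-1, switch a B cell to the secretory state, and Xbp1 expands the endoplasmic reticulum (ER), in which antibody chains are folded and joined. Few of these genes belong to plasma cells alone: Slamf7 is also known from natural killer cells, Jchain and Irf4 from plasmacytoid dendritic cells, Mzb1 from B cells and plasmacytoid dendritic cells, and Xbp1 from many secreting or stressed cells.

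Against the sgLuc group, 4 of the 10 genes, 8 of them tested, fell in the BRSST+sgLuc group, and the same 4 fell in the BRSST+sgEzh2 group. Of all genes tested, 11.7% and 3.86% fell. Irf4, Sdc1 and Slamf7 were bright enough to be tested only through the sgLuc arrays, so they had to be higher there. With no brightness filter the same 4 fell in both groups, against 6.49% and 2.39% of all 19505 genes. Jchain was 13.4-fold lower in BRSST+sgLuc and 24.97-fold lower in BRSST+sgEzh2, Slamf7 12.8-fold and 6.02-fold, Irf4 4.18-fold and 3.28-fold, and Sdc1 1.66-fold and 2.26-fold. The Slamf7 value in BRSST+sgEzh2 rests in part on 1 array of that group: without replicate 1 the log2 difference was -1.90 in place of -2.59. Xbp1 stayed within 0.59 log2 units, or 1.51-fold, over all 13 arrays. None of the 10 passed the test between BRSST+sgEzh2 and BRSST+sgLuc.

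The promoters of the 4 genes that fell are shown because each fell in both comparisons with sgLuc. That of Derl3 is shown because it held the only complete ER stress response element among the promoters searched. The search did not include the promoter of Mzb1. The sequences are from RefSeq on the build GRCm38.p6, written 5′ to 3′ on the gene's strand, and cover the 250 bases before the start. Capitals mark a motif match, so an all lower case sequence held none.
Irf4 (chr13:30748983-30749232, plus strand): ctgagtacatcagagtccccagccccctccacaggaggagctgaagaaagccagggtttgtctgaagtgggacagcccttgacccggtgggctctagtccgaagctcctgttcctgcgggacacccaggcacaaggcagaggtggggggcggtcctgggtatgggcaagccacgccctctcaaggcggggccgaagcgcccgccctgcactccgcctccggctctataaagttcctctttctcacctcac
Sdc1 (chr12:8771146-8771395, plus strand): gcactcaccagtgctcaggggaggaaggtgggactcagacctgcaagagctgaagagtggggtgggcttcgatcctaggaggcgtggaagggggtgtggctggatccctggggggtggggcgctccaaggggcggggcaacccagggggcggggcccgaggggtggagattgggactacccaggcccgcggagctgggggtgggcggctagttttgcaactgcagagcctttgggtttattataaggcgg
Slamf7 (chr1:171649000-171649249, minus strand): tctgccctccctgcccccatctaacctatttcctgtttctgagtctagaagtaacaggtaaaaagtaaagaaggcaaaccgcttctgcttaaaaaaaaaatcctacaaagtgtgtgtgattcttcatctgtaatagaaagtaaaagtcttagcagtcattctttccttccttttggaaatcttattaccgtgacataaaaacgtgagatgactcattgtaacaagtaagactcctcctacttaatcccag
Jchain (chr5:88527898-88528147, minus strand): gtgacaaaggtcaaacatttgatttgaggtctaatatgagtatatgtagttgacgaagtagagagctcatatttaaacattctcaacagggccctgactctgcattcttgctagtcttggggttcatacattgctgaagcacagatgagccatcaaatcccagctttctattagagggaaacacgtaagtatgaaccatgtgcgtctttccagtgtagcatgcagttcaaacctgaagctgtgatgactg
Derl3 (chr10:75893148-75893397, plus strand): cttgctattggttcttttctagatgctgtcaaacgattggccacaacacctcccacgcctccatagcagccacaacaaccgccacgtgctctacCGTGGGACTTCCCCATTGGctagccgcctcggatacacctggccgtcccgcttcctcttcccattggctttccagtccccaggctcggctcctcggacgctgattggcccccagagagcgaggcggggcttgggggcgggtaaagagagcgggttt

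Both strands of 10 promoters from 9 of the 10 genes were searched for 3 motifs, beside 32851 RefSeq promoters of the same length. TGACGTG, the core of the unfolded protein response element, was in 0 of the 10 and in 1.65% of all promoters. The ER stress response element, CCAAT and CCACG with 9 bases of any letter between them, was in 1 of the 10, that of Derl3, and in 0.113% of all; the match lay on the minus strand, from 156 to 138 bases before the start. GAAANNGAA, the tandem GAAA repeat that Irf proteins and Blimp-1 can bind, was in 1 of the 10, that of Tnfrsf17, from 100 to 92 bases before the start, and in 7.13% of all. The 4 genes that fell shared none of the 3 motifs in this window.

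The values are log2 signals, so a difference of 1 is a 2-fold change, and levels are compared only between arrays of the same gene. Array medians lay between 7.19 and 7.32, and a gene was tested if it exceeded its array's median on at least 4 arrays. A gene is said to rise or fall where limma's p, Benjamini-Hochberg adjusted over the 10601 genes, is under 0.05; every adjusted p below is from limma. Exact two-sided permutation tests over the arrays were also run for each gene and comparison, 30 in all, and are given unadjusted; they cannot go below 0.00794 for 5 arrays against 4 and 0.0286 for 4 against 4. In whole marrow, fewer cells of a type and less RNA per cell cannot be told apart.

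The 4 sgLuc arrays stood apart from the other 9 on the first principal component, and their array numbers in the labels follow a separate run, so any batch that follows these numbers cannot be told apart from the sgLuc group. Markers of neutrophils, the most abundant marrow cells, averaged 12.95 to 13.09 in sgLuc, 12.73 to 12.77 in BRSST+sgLuc and 12.76 to 12.94 in BRSST+sgEzh2. Every sgLuc array thus lay above every BRSST array. Replicates 2 and 5 of BRSST+sgLuc lay farthest apart on the second component, and without them 5 members fell in BRSST+sgLuc and 4 in BRSST+sgEzh2 against sgLuc, beside 14.5% and 6.93% of the genes tested in that fit; the member gained was Mzb1. The Y-linked genes Uty and Kdm5d were high on all sgLuc arrays, on replicates 1 and 4 of BRSST+sgLuc and on replicates 1 and 2 of BRSST+sgEzh2, and low on the other 5; with this split as a block, 5 members, Mzb1 included, and 4 members fell, beside 12.6% and 5.25% of the genes tested.

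**Figure D1:**
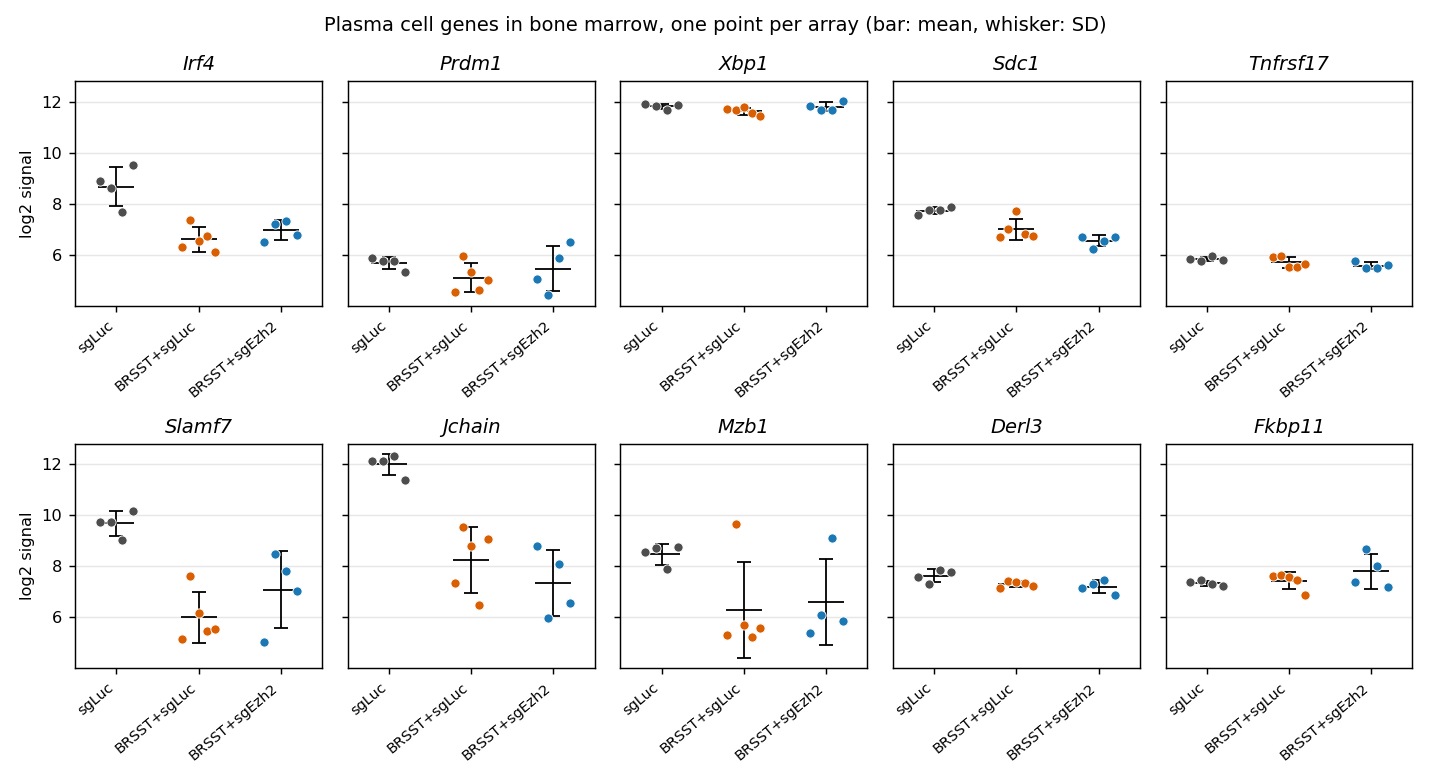
Log2 signal (y axis) of each of the 10 plasma cell genes on each of the 13 arrays, by group (x axis), with the group mean as a bar and the SD as whiskers. Jchain sat between 11.39 and 12.32 on the sgLuc arrays and at or below 9.54 on the other 9, while Xbp1 kept between 11.43 and 12.03 everywhere.

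Of the regulators, Irf4, the interferon regulatory factor that starts plasma cell differentiation, was lower in both BRSST groups. Irf4 signal on the sgLuc arrays was 8.89, 8.61, 7.66 and 9.50 (mean 8.67 ± 0.77, SD, n = 4). It was 6.31, 7.36, 6.53, 6.72 and 6.09 in BRSST+sgLuc (6.60 ± 0.49, n = 5) and 6.48, 7.22, 7.32 and 6.79 in BRSST+sgEzh2 (6.95 ± 0.39, n = 4). Every array of both BRSST groups lay below the lowest sgLuc array, replicate 3, and the BRSST groups overlapped each other. The difference from sgLuc was -2.06 ± 0.33 (SE) in BRSST+sgLuc (adjusted p = 0.000899, exact p = 0.00794) and -1.72 ± 0.35 in BRSST+sgEzh2 (adjusted p = 0.00694, exact p = 0.0286). The 95% interval of BRSST+sgEzh2 minus BRSST+sgLuc was -0.36 to 1.05, with an adjusted p of 0.695.

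Prdm1, which encodes the repressor that shuts down the B cell programme, was dim throughout: it lay above the array median on 0 of 13 arrays and below the lower quartile on 8, and so was not tested. Its signal was 5.88, 5.74, 5.76 and 5.33 in sgLuc, 4.53, 5.93, 5.33, 4.63 and 5.02 in BRSST+sgLuc, and 5.06, 4.42, 5.85 and 6.48 in BRSST+sgEzh2. All 3 groups overlapped. In the fit with no filter on low signals, the adjusted p was 0.351 for BRSST+sgLuc and 0.862 for BRSST+sgEzh2 against sgLuc.

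Xbp1, the transcription factor of the ER stress response, was bright on every array. Its signal was 11.91, 11.83, 11.67 and 11.85 in sgLuc, 11.70, 11.66, 11.77, 11.54 and 11.43 in BRSST+sgLuc, and 11.82, 11.65, 11.67 and 12.03 in BRSST+sgEzh2, with overlap between all groups. The difference of BRSST+sgLuc from sgLuc was -0.19 ± 0.11, with a 95% interval of -0.43 to 0.04 (adjusted p = 0.231, exact p = 0.0476). That of BRSST+sgEzh2 was -0.02 ± 0.12, with an interval of -0.27 to 0.23 (adjusted p = 0.942). The array counts all Xbp1 transcripts, and the spliced, active form was not measured separately here.

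Among the surface proteins, Sdc1, which encodes the plasma cell marker syndecan-1 (CD138), was lower by a small amount. The sgLuc arrays read 7.55, 7.75, 7.73 and 7.86 (7.72 ± 0.13, n = 4). BRSST+sgLuc arrays read 6.70, 7.01, 7.71, 6.81 and 6.72 (6.99 ± 0.42, n = 5), and BRSST+sgEzh2 arrays 6.68, 6.24, 6.54 and 6.71 (6.54 ± 0.22, n = 4). In BRSST+sgLuc, 4 of 5 arrays lay below all sgLuc arrays and replicate 3 lay among them, while all BRSST+sgEzh2 arrays lay below. Sdc1 differed from sgLuc by -0.73 ± 0.19 in BRSST+sgLuc (adjusted p = 0.013, exact p = 0.0238) and by -1.18 ± 0.20 in BRSST+sgEzh2 (adjusted p = 0.00205, exact p = 0.0286). Between the BRSST groups the difference was -0.45 ± 0.19, with an interval of -0.85 to -0.05, and did not pass (adjusted p = 0.297, exact p = 0.0476).

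Slamf7, a SLAM family receptor of plasma cells and natural killer cells, had its highest signals on the sgLuc arrays, at 9.74, 9.75, 9.04 and 10.18 (9.68 ± 0.47, n = 4). Slamf7 read 5.16, 7.63, 6.18, 5.46 and 5.55 in BRSST+sgLuc (6.00 ± 0.99, n = 5) and 5.02, 8.47, 7.82 and 7.04 in BRSST+sgEzh2 (7.09 ± 1.495, n = 4). No array of either BRSST group reached the lowest sgLuc array, and within BRSST+sgEzh2 replicate 1 lay below every BRSST+sgLuc array. The differences from sgLuc were -3.68 ± 0.61 in BRSST+sgLuc (adjusted p = 0.00118, exact p = 0.0159) and -2.59 ± 0.64 in BRSST+sgEzh2 (adjusted p = 0.022, exact p = 0.0286). The BRSST+sgEzh2 call was lost without sgLuc replicate 1, 2 or 4, with adjusted p-values of 0.0625, 0.0573 and 0.0575. BRSST+sgEzh2 minus BRSST+sgLuc was 1.09 ± 0.61, with an interval of -0.21 to 2.40 (adjusted p = 0.456).

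Tnfrsf17, the gene of BCMA, the receptor through which marrow plasma cells receive survival signals, exceeded the array median on 0 of 13 arrays and was not tested. Its signal was 5.82, 5.75, 5.96 and 5.79 in sgLuc, 5.90, 5.96, 5.52, 5.51 and 5.62 in BRSST+sgLuc, and 5.74, 5.47, 5.47 and 5.61 in BRSST+sgEzh2. BRSST+sgEzh2 did not overlap sgLuc (exact p = 0.0286), but the gap between the groups was 0.011 log2 units and the adjusted p with no filter was 0.309. BRSST+sgLuc overlapped both other groups.

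Of the genes of antibody assembly, Jchain, which encodes the chain that joins IgM and IgA into polymers, spanned the widest range of the 10, 6.34 log2 units over the 13 arrays. The sgLuc arrays were at 12.11, 12.14, 12.32 and 11.39 (11.99 ± 0.41, n = 4). BRSST+sgLuc arrays were at 7.35, 9.54, 8.80, 6.48 and 9.07 (8.25 ± 1.28, n = 5), and BRSST+sgEzh2 arrays at 8.79, 5.99, 8.08 and 6.55 (7.35 ± 1.31, n = 4). All 9 BRSST arrays lay below the 4 sgLuc arrays, and the BRSST groups overlapped each other. The differences from sgLuc were -3.75 ± 0.63 in BRSST+sgLuc (adjusted p = 0.0013, exact p = 0.00794) and -4.64 ± 0.67 in BRSST+sgEzh2 (adjusted p = 0.00065, exact p = 0.0286). BRSST+sgEzh2 minus BRSST+sgLuc was -0.90 ± 0.63, with an interval of -2.25 to 0.46 (adjusted p = 0.574).

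Mzb1, an ER protein that helps assemble IgM, was split within both BRSST groups. The sgLuc arrays read 8.56, 8.70, 7.88 and 8.75 (8.47 ± 0.40, n = 4). In BRSST+sgLuc the signals were 5.31, 9.66, 5.69, 5.22 and 5.58 (6.29 ± 1.89, n = 5), and in BRSST+sgEzh2 they were 5.37, 6.09, 9.09 and 5.86 (6.60 ± 1.69, n = 4). Replicate 2 of BRSST+sgLuc and replicate 3 of BRSST+sgEzh2 exceeded all sgLuc arrays, and the other 7 BRSST arrays lay below all of them. Neither difference from sgLuc passed, at -2.18 ± 0.87 in BRSST+sgLuc (adjusted p = 0.0875, exact p = 0.0635) and -1.87 ± 0.92 in BRSST+sgEzh2 (adjusted p = 0.231, exact p = 0.143). Without replicate 2 of BRSST+sgLuc the first difference was -3.02 (adjusted p = 0.00302), and without replicate 3 of BRSST+sgEzh2, which also sets the shared spread, it was -2.18 (adjusted p = 0.0479). Mzb1 in BRSST+sgLuc also passed with the Y-linked split as a block, at -3.21 (adjusted p = 0.0207), and with array quality weights it passed in both comparisons, at -3.03 (adjusted p = 0.000875) and -2.16 (adjusted p = 0.0167). In all, it passed in 5 of 25 alternative settings in BRSST+sgLuc and 1 of 25 in BRSST+sgEzh2, with adjusted p up to 0.179 and 0.447.

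The remaining genes act in the ER. Derl3, a derlin that takes part in moving misfolded proteins out of the ER, read 7.60, 7.30, 7.87 and 7.76 in sgLuc, 7.16, 7.43, 7.40, 7.34 and 7.21 in BRSST+sgLuc, and 7.17, 7.29, 7.48 and 6.89 in BRSST+sgEzh2. Both BRSST groups overlapped sgLuc through its replicate 2. The differences were -0.33 ± 0.14 (adjusted p = 0.107, exact p = 0.0476) and -0.43 ± 0.15 (adjusted p = 0.0844, exact p = 0.0571), and without sgLuc replicate 2 they were -0.43 (adjusted p = 0.0495) and -0.54 (adjusted p = 0.0482).

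Fkbp11, a peptidyl-prolyl isomerase of the secretory pathway, was the only member whose mean was higher in both BRSST groups than in sgLuc. It read 7.37, 7.44, 7.32 and 7.21 in sgLuc, 7.60, 7.67, 7.60, 7.45 and 6.88 in BRSST+sgLuc, and 7.37, 8.66, 8.004 and 7.18 in BRSST+sgEzh2. The groups overlapped, and the differences of 0.10 ± 0.25 (adjusted p = 0.819) and 0.47 ± 0.27 (adjusted p = 0.309) did not pass.

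Counted over the 10 genes, 9 had a lower mean in BRSST+sgLuc than in sgLuc, 4 fell and 0 rose, with a median difference of -0.66. Over all genes tested, 11.7% fell and 10.8% rose in that comparison, and the median difference was 0.01. The arrays of 3 of the 10 (Irf4, Slamf7, Jchain) lay wholly below sgLuc, against 9.82% of the genes tested. Sdc1, Mzb1, Irf4 and Slamf7 passed the brightness filter only through the sgLuc arrays, so they had to be higher there; with no filter and all 10 genes in the fit the same 4 fell, against 6.49% of 19505 genes.

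In BRSST+sgEzh2 against sgLuc, 9 of the 10 genes again had the lower mean, 4 fell and 0 rose, and the median difference was -0.80. Of all genes tested, 3.86% fell and 5.51% rose, with a median difference of 0.02. The arrays of 5 of the 10 (Irf4, Sdc1, Tnfrsf17, Slamf7, Jchain) lay wholly below sgLuc, 4 of them tested, against 9.06% of the genes tested. Of these, Irf4, Sdc1 and Slamf7 were tested only through the sgLuc arrays, so they had to be higher there. Tnfrsf17 was not among the genes tested, and the share of such genes with no filter was not computed. With no filter the same 4 fell, against 2.39%. Both comparisons use the same 4 sgLuc arrays, so they are not independent of each other.

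Between BRSST+sgEzh2 and BRSST+sgLuc, limma called 0 of the 8 tested members, where 0.113% of the genes tested fell and 0.67% rose. Sdc1 alone had an unadjusted p under 0.05 in limma, and it alone had an exact p under 0.05. The widest intervals were those of Mzb1, from -1.56 to 2.18, and Jchain, from -2.25 to 0.46. Sizeable differences in either direction remain within the error for Mzb1. For Jchain a sizeably lower signal in BRSST+sgEzh2 does. In this comparison 4 of the 10 genes had the lower mean in BRSST+sgEzh2, and the median difference was 0.24.

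**Figure D2:**
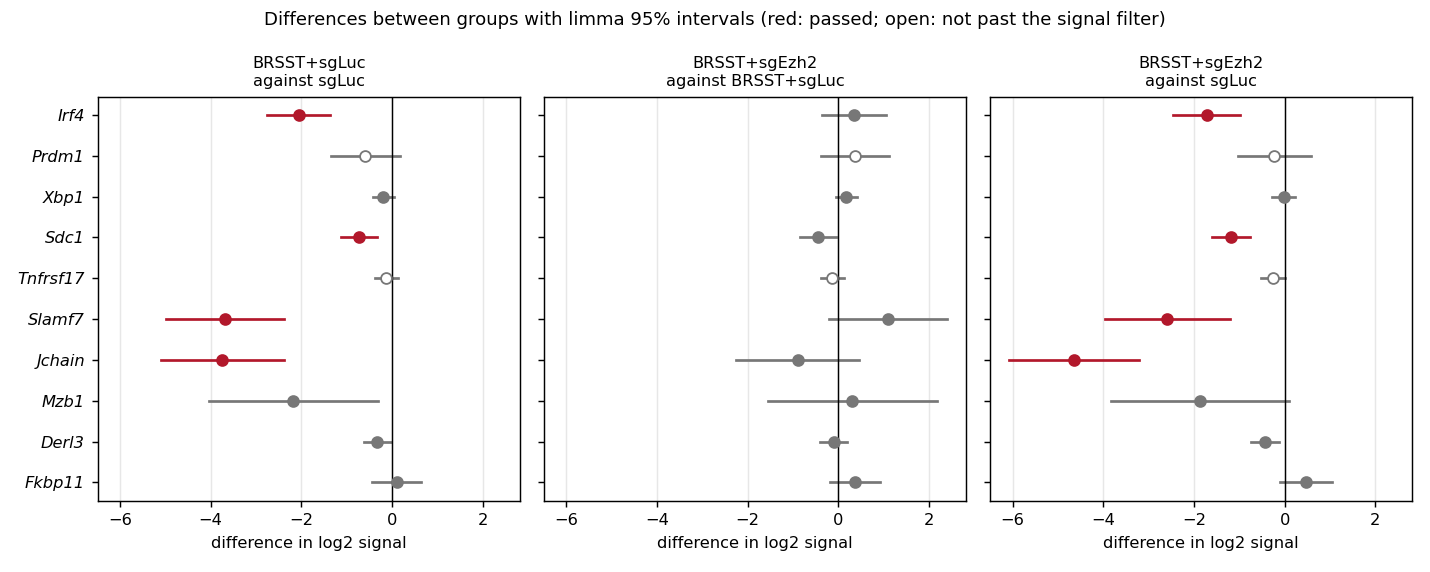
Difference in log2 signal (x axis) between 2 groups for each plasma cell gene (y axis), 1 panel per comparison, with limma's 95% interval as a line; red marks genes that passed, open points the 2 genes below the brightness filter. Irf4, Sdc1, Slamf7 and Jchain passed in both comparisons with sgLuc, and no gene passed between BRSST+sgEzh2 and BRSST+sgLuc.

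Markers of other cell types moved with several of these genes on the same arrays; the pairings below were made after the values were seen, and the part of these cell types in the results was not tested. For the counts below, 11.7% of all genes tested fell in BRSST+sgLuc against sgLuc, and 3.86% fell in BRSST+sgEzh2. Mzb1 was set beside the mature B cell list. The mean of its 8 measured markers was 9.10 to 9.75 in sgLuc, 8.86 and 9.25 on the 2 BRSST arrays where Mzb1 was high, and 7.34 to 7.72 on the other 7. On those 2 arrays, replicate 2 of BRSST+sgLuc and replicate 3 of BRSST+sgEzh2, Ly6d read 10.83 and 10.69 and Fcrla 10.09 and 10.48. This pairing was not particular to mature B cells. The same 2 arrays had the highest means of their groups for T cell markers (7.56 and 8.79). They also did for plasmacytoid dendritic cell markers (8.50 and 7.81). Against sgLuc, 6 of the 7 tested mature B cell markers fell in BRSST+sgLuc (median -1.92) and 4 in BRSST+sgEzh2 (median -1.47); without single sgLuc arrays these counts went as low as 3 and 1. Cd22, Cr2 and Fcrla were tested only through the sgLuc arrays, so they had to be higher there; they make up 3 of the 6 and 2 of the 4, and with no filter 6 and 4 of all 8 measured markers fell.

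Slamf7 was set beside the natural killer cell list. Its 7 measured markers averaged 7.34 to 8.12 in sgLuc and 7.59 on replicate 2 of BRSST+sgLuc, the array of that group with the most Slamf7. They averaged 5.50 to 6.07 on the other 4 BRSST+sgLuc arrays and 5.51 on replicate 1 of BRSST+sgEzh2, where Slamf7 was lowest, against 7.24 to 7.54 on the other 3 of that group. The pairing was not particular to natural killer cells. B cell precursor markers averaged 6.667, 8.575, 7.929 and 7.435 on replicates 1 to 4 of BRSST+sgEzh2, the same order as Slamf7, which the natural killer cell list did not keep. Replicate 2 of BRSST+sgLuc was also highest in its group for the B cell, T cell and dendritic cell lists. The activating receptor Ncr1 fell by 2.80 ± 0.76 in BRSST+sgLuc (adjusted p = 0.0176), though not without sgLuc replicate 1 (adjusted p = 0.0503), and the difference was -3.55 without replicate 2 of BRSST+sgLuc. In all, 3 of the 4 tested natural killer cell markers fell in BRSST+sgLuc, 1 of them (Eomes) tested only through the sgLuc arrays, and 0 in BRSST+sgEzh2; with no filter, 4 and 0 of 7 fell.

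Jchain was set beside the plasmacytoid dendritic cell list. The 7 measured markers averaged 9.23 to 9.78 in sgLuc, 7.26 to 8.50 in BRSST+sgLuc and 7.37 to 7.81 in BRSST+sgEzh2. Replicates 2 and 3 of BRSST+sgLuc had the highest means of the 9 BRSST arrays, at 8.50 and 8.23, and Jchain was high on both, but Jchain was also high on replicate 5 of that group and replicate 1 of BRSST+sgEzh2, where the markers averaged 7.26 and 7.37. Of the 6 tested markers, 5 fell in BRSST+sgLuc and 6 in BRSST+sgEzh2. Without sgLuc replicate 2 only 2 fell in each. Ccr9 and Klk1 were bright enough to be tested in only 9 of 13 fits that left out 1 array. The marker Bst2 stayed tested, but its BRSST+sgEzh2 call was lost without sgLuc replicate 2. Siglech, Ccr9 and Klk1 were tested only through the sgLuc arrays and so had to be higher there; with no filter, 6 and 7 of the 7 measured markers fell.

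**Figure D3:**
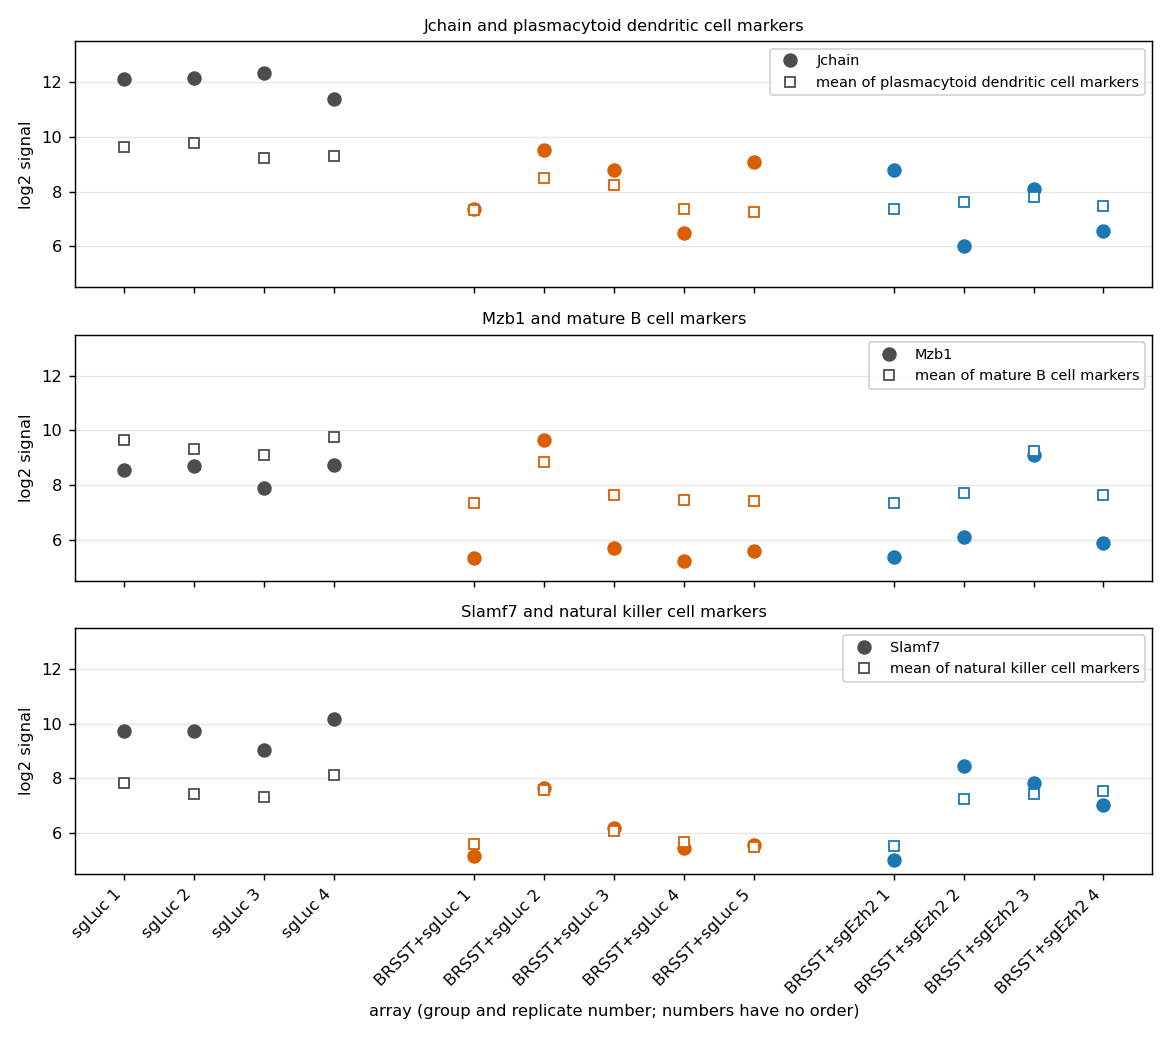
Log2 signal (y axis) of Jchain, Mzb1 and Slamf7 (filled circles) and the mean log2 signal of a marker list of another cell type (open squares) on each of the 13 arrays (x axis, group and replicate number). The 2 BRSST arrays with Mzb1 above 9 are those with mature B cell markers above 8.8, and replicate 1 of BRSST+sgEzh2 is low for both Slamf7 and the natural killer cell markers.

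The genes most like Jchain were found by the root mean square distance, over the 13 arrays, between log2 signals taken relative to the sgLuc mean, among 10279 genes. The nearest was Siglech, a receptor of plasmacytoid dendritic cells, at 1.03 log2 units, followed by Ifit1bl2 (1.14), Prss34, a basophil protease (1.16), Stk39 (1.19), Tlr5 (1.20), Cldn1 (1.29), Fcer1a, which encodes an IgE receptor chain (1.36), and Atp1b1 (1.53). Siglech read 10.37 to 11.38 on the sgLuc arrays, and in BRSST+sgLuc it was 6.51, 9.01, 9.01, 6.40 and 5.89. Of the plasma cell genes, Slamf7 was nearest to Jchain at 1.82, then Mzb1 at 2.22, Irf4 at 2.25 and Sdc1 at 2.83. Derl3 (3.30) and Xbp1 (3.52) were farther, though nearer than the median gene at 3.62, and Fkbp11 (3.87) lay beyond it. The distance follows size of change and brightness range as well as shape, and no gene was tested with it.

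Other genes of the plasma cell programme were taken from lists set by name. Their counts stand beside all genes tested, of which 11.7% fell and 10.8% rose in BRSST+sgLuc against sgLuc. In BRSST+sgEzh2 these shares were 3.86% and 5.51%. Besides Irf4, Prdm1 and Xbp1, 5 tested regulators act in plasma cell formation, of which 3 fell in both BRSST groups; 1 of the 3, Ikzf3, was tested only through the sgLuc arrays, and with no filter 3 and 4 of the 6 measured fell. Ikzf3, the gene of Aiolos, differed from sgLuc by -2.33 ± 0.45 in BRSST+sgLuc (adjusted p = 0.00272) and -1.83 ± 0.47 in BRSST+sgEzh2 (adjusted p = 0.0263). Pou2af1, a B cell coactivator, differed by -1.44 ± 0.29 (adjusted p = 0.00351) and -1.10 ± 0.30 (adjusted p = 0.037). Ell2, an elongation factor that favours secreted antibody transcripts, differed by -1.43 ± 0.13 (adjusted p = 1.85e-05) and -0.74 ± 0.14 (adjusted p = 0.00464). Without single arrays of BRSST+sgEzh2 or sgLuc, the BRSST+sgEzh2 calls of Ikzf3 and Pou2af1 were lost in 5 and 6 of 13 fits. Ell2 was also higher in BRSST+sgEzh2 than in BRSST+sgLuc, by 0.69 ± 0.13 (adjusted p = 0.0299), a call kept in 5 of 13 fits that left out 1 array.

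Among 7 regulators that hold the B cell state, which plasma cells switch off, 6 fell in BRSST+sgLuc, among them Spib (-3.29 ± 0.68, adjusted p = 0.004), Pax5 (-2.99 ± 0.76, adjusted p = 0.0125) and Ebf1 (-2.87 ± 0.58, adjusted p = 0.00374). In BRSST+sgEzh2 2 of 7 fell, Bach2 by 1.32 and Ciita, named after its values were seen, by 0.92, while leaving out 1 array gave 1 to 5 of 7: 1 without replicate 1 of that group or sgLuc replicate 1, and 5 without replicate 3 of that group or replicate 2 of BRSST+sgLuc. Spib and Id3 were tested only through the sgLuc arrays; with no filter 5 and 2 of the 7 fell. Immunoglobulin constant-region genes were not analysed here.

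Of 11 tested survival factors and niche genes that sustain marrow plasma cells, 2 fell and 0 rose in BRSST+sgLuc, with a median of -0.25. Among all genes tested, 11.7% fell and 10.8% rose there. Tnfsf13b, the gene of BAFF, which signals to B cells and, through BCMA, to plasma cells, fell by 2.06 ± 0.21 in BRSST+sgLuc (adjusted p = 4.49e-05) and by 1.16 ± 0.23 in BRSST+sgEzh2 (adjusted p = 0.00549). Il6st, the signalling chain of the interleukin-6 receptor, fell by 1.57 ± 0.39 in BRSST+sgLuc (adjusted p = 0.0119). Itga4, an integrin chain of marrow homing, was higher in BRSST+sgEzh2 than in BRSST+sgLuc by 0.72 ± 0.14 (adjusted p = 0.0307), kept in 4 of 13 fits that left out 1 array.

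Of 19 tested genes of ER translocation and export, 0 fell and 3 rose in BRSST+sgLuc, with a median difference of 0.07. Among all genes tested, 11.7% fell and 10.8% rose there. Ssr4, of the translocon-associated complex, rose by 0.60 ± 0.12 (adjusted p = 0.00289) and Spcs1, of the signal peptidase, by 0.60 ± 0.11 (adjusted p = 0.00265). In BRSST+sgEzh2 2 of the 19 rose and 0 fell, beside 5.51% and 3.86% of all genes tested. The count that rose went down to 1 in fits without single arrays.

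Of 15 tested ER chaperones and folding enzymes, 2 fell and 1 rose in BRSST+sgLuc (median -0.23), beside 11.7% and 10.8% of all genes tested. In BRSST+sgEzh2, 0 fell and 1 rose (median 0.23), beside 3.86% and 5.51%. Txndc5, a disulfide isomerase, fell by 1.43 ± 0.30 in BRSST+sgLuc (adjusted p = 0.00446) and Hsp90b1, the ER chaperone GRP94, by 0.62 ± 0.16 (adjusted p = 0.013), while Dnajc3, a co-chaperone, rose by 0.62 ± 0.11 (adjusted p = 0.00149). Between BRSST+sgEzh2 and BRSST+sgLuc, 14 of the 15 were higher in BRSST+sgEzh2, with a median difference of 0.50 beside 0.01 over all genes, but 0 passed. Without replicate 3 of BRSST+sgLuc, 7 of the 15 rose in that comparison and 6 fell in BRSST+sgLuc against sgLuc. The BRSST+sgEzh2 call against sgLuc, also Dnajc3, was kept in 3 of 13 such fits.

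In ER-associated degradation, the pathway of Derl3, 2 of 11 genes fell in BRSST+sgLuc and 1 in BRSST+sgEzh2. The shares of all genes tested that fell were 11.7% and 3.86%. Of the 2 genes, Edem1 fell in 9 of 13 fits that left out 1 array. Edem3, a mannosidase that marks misfolded glycoproteins, fell in both, by 1.05 ± 0.11 (adjusted p = 3.92e-05) and 0.61 ± 0.11 (adjusted p = 0.00414). Of 9 tested stress sensors and genes of the PERK arm, Asns fell by 1.26 ± 0.30 in BRSST+sgLuc (adjusted p = 0.00925) and Ppp1r15a rose by 0.95 ± 0.27 in BRSST+sgEzh2 (adjusted p = 0.0385), the latter in 7 of 13 fits that left out 1 array.

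**Figure D4:**
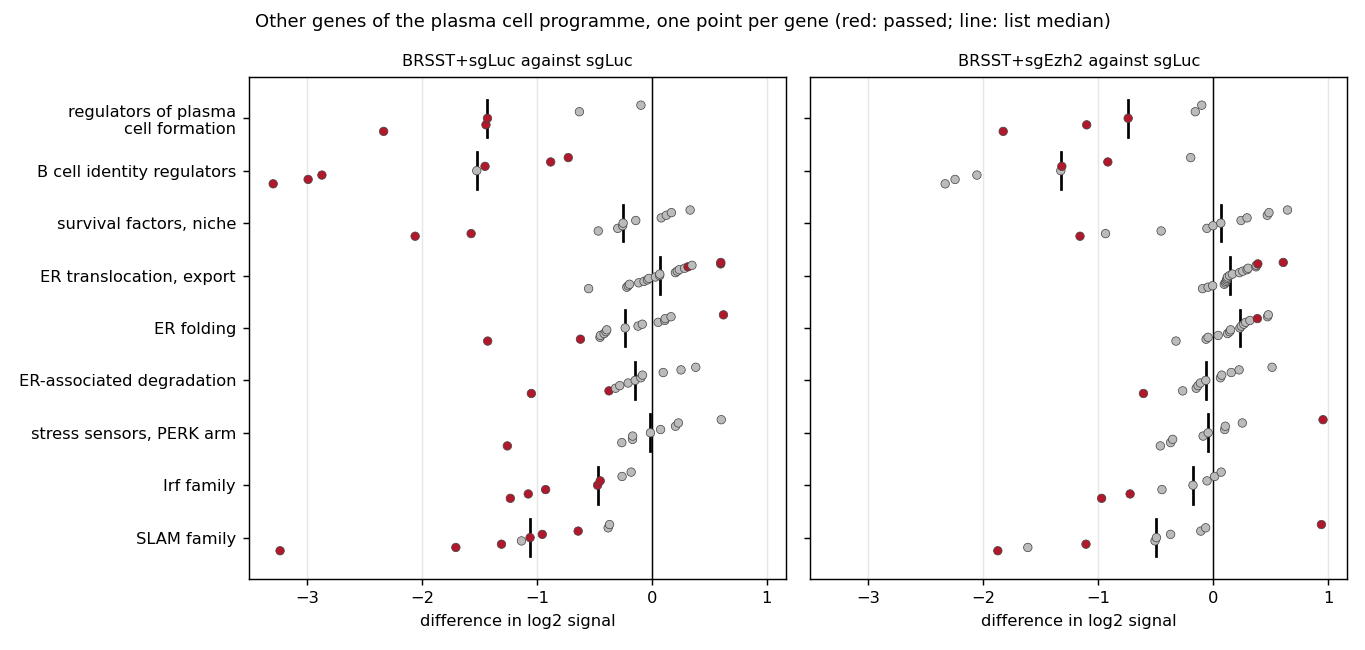
Difference in log2 signal from sgLuc (x axis) of each tested gene in 9 lists (y axis), 1 point per gene, with the list median as a black line and genes that passed in red, for BRSST+sgLuc (left) and BRSST+sgEzh2 (right). Regulators of the B cell and plasma cell states lie to the left of 0, while the ER lists are centred near 0, with medians from -0.23 to 0.23.

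The gene families of Irf4 and Slamf7 were looked at in the same way. Of 7 other Irf genes, 5 fell in BRSST+sgLuc, the largest being Irf8, a regulator of B, dendritic and myeloid cells, by 1.23 ± 0.21 (adjusted p = 0.00144), and Irf7, of the interferon response, by 1.08 ± 0.25 (adjusted p = 0.0087). In BRSST+sgEzh2 2 fell, Irf7 and Irf9, a count that went to 0 without sgLuc replicate 1 or 2. Of 9 other tested SLAM receptors and adaptors, 6 fell in BRSST+sgLuc, led by Slamf6, a receptor of lymphocytes, by 3.23 ± 0.72 (adjusted p = 0.00613; a difference of -3.85 without replicate 2 of BRSST+sgLuc), Slamf9 by 1.71 ± 0.39 (adjusted p = 0.00739) and Ly9 by 1.31 ± 0.20 (adjusted p = 0.000826). In BRSST+sgEzh2 2 fell, Slamf9 and Cd244a, the latter in 6 of 13 fits that left out 1 array. Sh2d1b1, an adaptor of natural killer cells named after its values were seen, rose by 0.94 ± 0.26 (adjusted p = 0.0367). The count of SLAM genes that rose there went from 1 to 0 without some single arrays, such as sgLuc replicate 1. Slamf1 and Slamf9 were tested only through the sgLuc arrays; with no filter 7 and 3 of 10 fell. Each of these counts stands beside the 11.7% and 3.86% of all tested genes that fell. Between BRSST+sgEzh2 and BRSST+sgLuc, 1 of the 7 Irf genes and 1 of the 9 SLAM genes rose and 0 fell. Of all genes tested, 0.67% rose and 0.113% fell there. In fits that left out 1 array, the count that rose ran from 0 to 2 in each family.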

How the data were processed

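The authors deposited log2 signals, 1 value per row and array, for which the submitters' processing notes name oligo and R 3.5.01; how background and normalization were handled is not given in the sources used, and the log2 scale was read from the values. RNA (2 ng) was amplified with 10 PCR cycles, per the labels' protocols. Of 22203 rows, 19572 had 1 symbol; for 55 genes with several rows the brightest was used. The 10 members' symbols matched RefSeq (GRCm38.p6, used for names and promoters) by Entrez number. Promoters of 9 members were used.

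The comparisons used limma 3.58.1 (R 4.3.3), in 1 fit of 3 group means over 13 arrays, checked on simulated data. Exact permutation tests were run in Python 3.11.15 over all splits of the arrays, and matplotlib 3.10.9 drew the figures. The number of arrays limits the precision. Besides the members, the text names from each of 22 gene lists at most 4 genes that passed, by size of change in BRSST+sgLuc against sgLuc, and the 8 genes nearest to Jchain. Members and lists were chosen with earlier results of these data known. Alternatives changed the filter, normalization, rows per gene, variance model, array weights, replicate block, Y-linked block, samples, threshold and arrays left out.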

Additional observations from a re-analysis of the deposited data

Results flagged for a closer look

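In 30 groups of arrays (10 plasma cell genes in 3 groups), the gap between the highest or lowest array and its neighbour was compared with the group's range, a check that chance trips in about 1 in 20 groups, and 2 groups exceeded the limit. Mzb1 was at 9.66 on replicate 2 of BRSST+sgLuc, where the next array was at 5.69, a gap of 0.894 of the group's range against a limit of 0.71. Fkbp11 was at 6.88 on replicate 5 of BRSST+sgLuc, where the next array was at 7.45, a gap of 0.719 of the range.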

How the results depend on the processing

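The number of members that fell against sgLuc, 4 in both comparisons, went to 2 in both under the stricter brightness filter (above the 75th percentile on at least 4 arrays), because only 3 members were then tested; Jchain and Slamf7 were the 2. The other 76 of 78 recomputed counts stayed within 1.5 times. Leaving out 1 array gave 4 to 5 members in BRSST+sgLuc, 3 to 4 in BRSST+sgEzh2 and 0 between the BRSST groups. Jchain, Irf4 and Sdc1 passed in 13 of 13 such fits in both comparisons with sgLuc. Of 615 recomputed member differences, 595 kept direction and call, 8 gained the call, 6 lost it and 6 turned, none of them a called difference. Those 6 were Jchain between the BRSST groups with array quality weights (0.27), Mzb1 and Derl3 between them without BRSST+sgEzh2 replicate 3 (-0.52, range without single arrays -0.52 to 1.15) and replicate 4 (0.002, range -0.19 to 0.002), and Xbp1 in BRSST+sgEzh2 against sgLuc without BRSST+sgEzh2 replicate 2 (0.025) or 3 (0.020) or sgLuc replicate 1 (0.010; range -0.10 to 0.025); the cause was not tested. Sdc1 in BRSST+sgLuc and Slamf7 in BRSST+sgEzh2 lost the call at an adjusted p of 0.01, and Sdc1 also when a 2-fold change was asked for. Of 2478 recomputed differences of other named genes, 203 lost the call and 0 turned. With the replicate number as a block (replicate block), 4, 0 and 4 members passed, as without it. Residual correlations between arrays of the same number ran from -0.18 to 0.19 over 12 pairs. With 4 or 5 arrays per group these correlations cannot decide whether the numbers pair the samples, and the labels do not say. Leaving out the 2 BRSST+sgLuc arrays farthest apart was chosen after seeing the data. Prdm1 and Tnfrsf17 have fitted values only with no filter, and 13 arrays from whole marrow limit what can be seen of dim genes.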

Other observations

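Marker lists of further cell types were followed on the same arrays as the plasma cell genes. For their counts, 11.7% of all genes tested fell and 10.8% rose in BRSST+sgLuc against sgLuc. In BRSST+sgEzh2 these shares were 3.86% and 5.51%. Of 7 tested markers of B cell precursors, 6 fell in BRSST+sgLuc against sgLuc (median difference -2.44), among them the surrogate light chain genes Vpreb3 (-4.24, limma adjusted p = 0.000546) and Vpreb1, and 2 fell in BRSST+sgEzh2. Vpreb3 and Il7r, 2 of the 6 and both of the 2, were tested only through the sgLuc arrays and so had to be higher there; with no filter, 8 and 3 of 9 fell. Of 4 tested basophil and mast cell markers, 3 fell in both comparisons, with medians of -2.64 and -2.85, and Prss34 differed by -4.76 and -5.08. Fcer1a, 1 of the 3, was tested only through the sgLuc arrays, and without any 1 sgLuc array 2 fell; with no filter, 4 of 5 fell in both. Of 5 tested T cell markers, 3 fell in BRSST+sgLuc, Cd3g and Zap70 among them tested only through the sgLuc arrays, and 0 in BRSST+sgEzh2. With no filter, 3 and 0 of 6 fell. The median difference in BRSST+sgEzh2 was -0.84, and fits that left out 1 array gave 0 to 4 that fell there. Of 5 tested erythroid markers, 3 rose in BRSST+sgLuc (median 1.20) and 0 changed in BRSST+sgEzh2 (median 0.10). Of 6 monocyte and macrophage markers, 3 fell and 1 rose in BRSST+sgLuc, and 1 fell and 1 rose in BRSST+sgEzh2; Cd14 rose in both, by 2.54 and 2.44. Cx3cr1, which fell in both, was tested only through the sgLuc arrays. Of 7 neutrophil markers 2 fell in BRSST+sgLuc and 1 in BRSST+sgEzh2, with medians of -0.19 and -0.16. Of 4 tested classical dendritic cell markers, 2 and 1 fell, with Itgax, tested only through the sgLuc arrays, in both counts, and of 2 tested stromal markers 0 changed. Without single arrays, these counts of calls moved by 0 to 4 genes.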
